A study of Branchiostoma lanceolatum with 6 samples.

Results

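Epidermal/neural 1 is the name that the annotation of an amphioxus neurula cell atlas gives to 108 of its 14586 cells. The cells were taken by that annotation alone, and all 108 lie in 1 metacell, number 56 of 176, a metacell being a small group of cells with closely alike transcriptomes. The atlas was made by MARS-seq, a plate-based single-cell RNA-seq method that counts messenger RNA molecules through unique molecular identifiers (UMIs), from pooled wild type *Branchiostoma lanceolatum* embryos at 21 hours post-fertilization (hpf). Live cells were sorted into 40 plates of 384 wells. The 14586 cells are deposited as a single table for 2 samples, and the cell names do not say from which sample a cell came, so the table was treated as 1 sample without replicates and no p-value is given. No cell name occurs more than once (0 repeats).

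The amphioxus neurula is built from a few tissues that are already well separated. An outer epidermis of ciliated, keratin-rich cells covers the embryo, the neural plate lies under it along the dorsal side, and the endoderm and the mesoderm (somites, their muscle cells and the notochord) lie inside. A tailbud at the posterior end still feeds the axis. Each tissue is marked by its own transcription factors and structural genes, so that a cell of 1 tissue normally carries few transcripts of the marker genes of another.

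Epidermal/neural 1 stood between these tissues. Its cells carried the epidermal genes at close to 50% of the level in anterior epidermis, together with marker lists of neural plate, endoderm, somites and tailbud at 11.6% to 24.1% of the level in their own tissues. Over all genes at least 4-fold higher in 1 of these 4 tissues than in anterior epidermis, the median share was higher, at 44.3% to 53.6% of the level in that tissue. Such genes may also be high in other inner tissues, so these values are not the share of 1 tissue in the class. In the fits described further on, single cells mostly joined epidermis with 1 other layer, and which layer this was differed from cell to cell. Epidermis and neural tissue are counted as separate layers here, although both form from the ectoderm. The name given to the class mentions epidermis and neural tissue only. The largest fitted layer beside epidermis was neural in 57 of the 108 cells, mesoderm in 25, endoderm in 21 and tailbud in 5. These assignments rest on all genes fitted, and some cells held 0 UMIs of the marker list of that layer. The data thus go beyond the given name, which is used here only for the annotated class.

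The class had the highest median depth of the 17 annotated classes. Its cells held 892 UMIs at the lowest, 6757.5 at the median and 14562 at the highest, and 736031 UMIs in all. The median was 2061 UMIs in anterior epidermis, 1246 in posterior epidermis, 2401 in neural, 3001.5 in somite and 1936.5 in endoderm cells. At least 4000 UMIs were found in 81 of the 108 epidermal/neural 1 cells and in 19.9% of the anterior epidermal cells. The classes overlapped in depth, since the deepest anterior epidermal cell held 14544 UMIs.

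**Figure D1:**
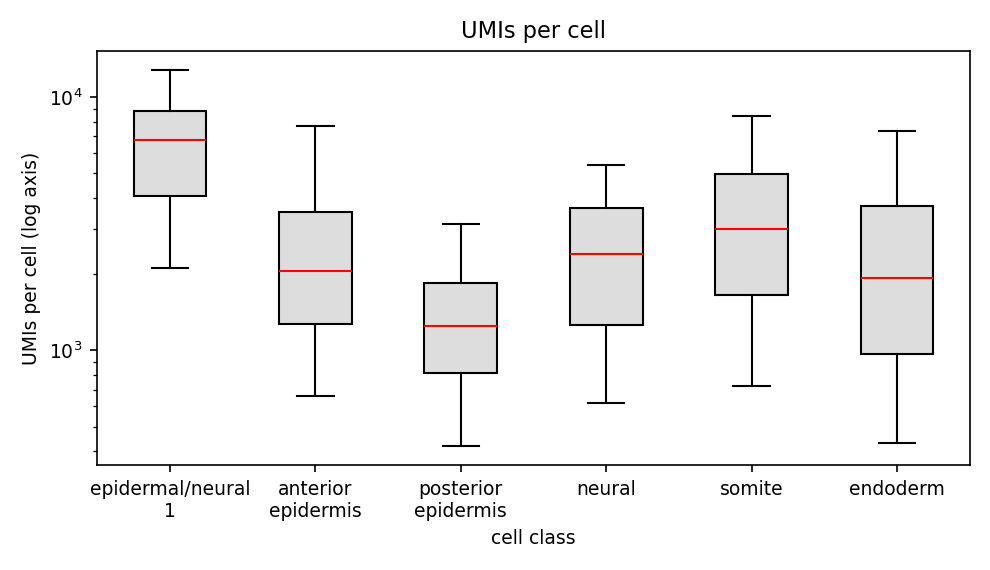
UMIs per cell (log axis) in epidermal/neural 1 and the 5 classes it is compared with. Boxes span the quartiles with the median in red, and whiskers reach the 5th and 95th percentiles of the cells; the median of epidermal/neural 1, 6757.5 UMIs, lies above the upper quartile of each of the other 5 classes.

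Depth also varies between plates, and the cells were unevenly spread over them. They were found on 25 plates and were not found on the other 15. Plates 21 and 29 held 16 cells each, plate 24 held 15, plate 23 held 11 and plate 22 held 8, so that these 5 plates held 66 cells (61.1%), against 12.5% of all cells of the atlas. Set against cells of the same plate, an epidermal/neural 1 cell held 2.65 times the median UMIs of anterior epidermal cells (median over the 108 cells), with 97 of 108 above it. The same ratio was 3.47 for posterior epidermis, 2.25 for neural, 2.24 for endoderm and 1.73 for somite cells. In all, 75 of the 108 cells lay above the 90th percentile of the other cells of their plate. The labels do not say which conditions or reagents a plate shared with others, and why these plates held more of the cells was not tested.

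At a depth made equal by thinning each cell to 2000 UMIs (4 shallower epidermal/neural 1 cells left out), the cells still showed more genes at the median. The median was 1157 genes per cell in epidermal/neural 1 (888 to 1311), against 1020 in anterior epidermis (704 to 1449) and 945 in posterior epidermis (628 to 1593). It was 1112 in neural (848 to 1280), 1092 in somite (822 to 1454) and 1077 in endoderm cells (878 to 1480). The ranges overlapped widely.

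Levels below are the summed UMIs of a gene or list over the cells of a class, per 10,000 UMIs of that class, with an exact Poisson 95% interval that covers counting error only. The lists hold marker genes that the study itself used or drew from this atlas, so a high level of a list in its own tissue describes the annotation and is no independent evidence.

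The epidermal genes were intermediate. The list of 9 epidermal genes came to 179.5 UMIs per 10,000 (176.5 to 182.6) in epidermal/neural 1, against 368 in anterior epidermis, 392 in posterior epidermis, 18.4 in neural, 13.2 in endoderm and 10.7 in somite cells. *Krt75* (BLAG18000385), a keratin, was at 95.7 (93.5 to 98.0) in epidermal/neural 1 and at 205 in anterior epidermis, 7.81 in neural, 6.67 in endoderm and 5.56 in somite cells. The second keratin, *Krt13* (BLAG17000452), was at 45.0 in epidermal/neural 1 and 89.3 in anterior epidermis, and *Fhl2* (BLAG01001103), a LIM-domain protein gene, at 21.9 and 39.7. For none of these genes did the interval in epidermal/neural 1 overlap that of 1 of the 5 compared classes. Epidermal/neural 2, the other class whose name joins both tissues, is not among them and was close. Its epidermis list was at 186.5 (181.9 to 191.2). There *Krt75* was at 97.1 (93.7 to 100.5) and *Fhl2* at 22.95 (21.4 to 24.6), with intervals that overlap those of epidermal/neural 1.

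The transcription factors of the epidermis followed the keratins. *Klf1/2/4* (BLAG13000172) was at 3.45 (3.04 to 3.90) in epidermal/neural 1 and 6.51 in anterior epidermis, *Dlx* (BLAG12000563), a homeobox gene, at 2.01 (1.70 to 2.36) and 3.83, and *Tfap2* (BLAG02001170) at 1.63 (1.35 to 1.95) and 3.16. *Grhl* (BLAG02000617), a grainyhead factor of surface epithelia in many animals, was at 0.652 (0.481 to 0.865) in epidermal/neural 1 and 0.933 in anterior epidermis. *Foxj1* (BLAG09001148), which controls motile cilia in vertebrates, was at 5.86 and 10.7. *Tmprss15* (BLAG18000493), a protease gene and a marker of anterior epidermis, was furthest down at 3.36 in epidermal/neural 1 against 8.82. Of the 9 genes, 2 were at least 2-fold lower than in anterior epidermis and 0 were higher. Over all 3229 genes with enough UMIs (50 expected at the higher of both levels), 13.0% were at least 2-fold lower and 19.7% at least 2-fold higher.

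The neural list was carried at a lower share of its own tissue than the epidermis list. It held 12 genes and came to 12.1 (11.3 to 12.9) in epidermal/neural 1, against 50.02 in neural, 4.15 in anterior epidermis, 3.83 in endoderm and 2.94 in somite cells. In epidermal/neural 2 it was higher, at 18.2 (16.8 to 19.7). *Elav* (BLAG13000238), an RNA-binding protein gene of differentiating neurons, was at 4.23 (3.77 to 4.72) in epidermal/neural 1, 18.1 in neural and 1.03 in anterior epidermal cells. *Celf3/4/5/6* (BLAG19000228), also an RNA-binding protein gene, was at 1.06 in epidermal/neural 1, 4.35 in neural and 0.121 in anterior epidermal cells. *Prox* (BLAG04000536), a homeobox gene, was at 2.17 in epidermal/neural 1, 6.27 in neural and 0.942 in anterior epidermal cells. *Soxb1c* (BLAG14000923), a SoxB factor of the early neural plate, was at 0.734 in epidermal/neural 1 and 2.68 in neural cells. *Neurogenin* (BLAG15000404), a proneural factor, had 17 UMIs in 7 cells and a level of 0.231 against 1.13 in neural cells.

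Against neural cells, 10 of the 10 neural list genes with enough UMIs were at least 2-fold lower, beside 8.6% of 3383 genes. Against anterior epidermis, 5 of 6 were at least 2-fold higher, beside 19.7% of 3229 genes. *Tcf15-like* (BLAG10000671), a basic helix-loop-helix gene of the neural plate and tailbud, was at 0.774 in epidermal/neural 1 and 6.28 in neural cells.

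Endodermal genes were carried too. The endoderm list of 9 genes came to 9.35 (8.66 to 10.1) in epidermal/neural 1 and to 48.2 in endoderm, 7.38 in somite, 2.06 in neural and 0.762 in anterior epidermal cells. In epidermal/neural 2 it came to 0.693. *Plac8-like* (BLAG07000527) was at 2.91 (2.53 to 3.32) in epidermal/neural 1, 18.4 in endoderm and 0.199 in anterior epidermis. *Hypp9287* (BLAG19000841), a gene of unknown function, was at 2.201, 12.9 and 0.140 in the same order. *Soxf* (BLAG02000861), whose relative *Sox17* marks endoderm in vertebrates, was at 0.706, 2.84 and 0.0523, and *Pax1/9* (BLAG04001279), a pharyngeal endoderm factor, at 0.326, 1.89 and 0.0468. All 4 list genes with enough UMIs were at least 2-fold higher than in anterior epidermis, as were 19.7% of all genes compared. Against endoderm, all 7 with enough UMIs were at least 2-fold lower, beside 15.6% of 3412 genes.

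Mesodermal and tailbud genes were present as well. The somite list of 9 genes came to 4.96 (4.46 to 5.49) in epidermal/neural 1 and to 23.9 in somite, 2.98 in neural and 0.472 in anterior epidermal cells. In epidermal/neural 2 it came to 0.361. *Ripply* (BLAG01000752), which encodes a repressor used in somite formation, was at 1.85 (1.55 to 2.19) in epidermal/neural 1, 5.45 in somite and 0.0579 in anterior epidermal cells. *Foxc* (BLAG07001306), a forkhead gene of somites, was at 0.802 in epidermal/neural 1 and 2.71 in somite cells. *Twist-like* (BLAG19000659) and *Alx* (BLAG03000142), both mesodermal factors, were low at 0.177 and 0.190 in epidermal/neural 1, against 3.21 and 2.36 in somite cells. *Tcf21/Msc* had 0 UMIs in epidermal/neural 1, which allows a level of up to 0.0501, and was at 0.142 in somite cells. Against somite cells, all 8 somite genes with enough UMIs were at least 2-fold lower, beside 10.4% of 3388 genes.

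Muscle and notochord genes were far below their own tissues but above anterior epidermis. The muscle list came to 1.24 in epidermal/neural 1, 57.7 in muscular somites and 0.160 in anterior epidermis, with 3 of the other 16 classes above epidermal/neural 1. The notochord list came to 0.747 in epidermal/neural 1, 14.8 in the notochord and 0.1002 in anterior epidermis, with 4 classes above epidermal/neural 1. The tailbud list came to 7.17 (6.57 to 7.81) in epidermal/neural 1, 61.8 in the tailbud and 0.644 in anterior epidermis. Within it *Wnt1* (BLAG17000294), a secreted ligand, was at 2.54 (2.19 to 2.93) in epidermal/neural 1 and 23.3 in tailbud cells. Expressed as a share of the tissue in which each list is highest or named, epidermal/neural 1 reached 48.8% of anterior epidermis, 24.1% of neural, 20.8% of somite, 19.4% of endoderm, 11.6% of tailbud, 5.05% of notochord and 2.14% of muscular somites.

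**Figure D2:**
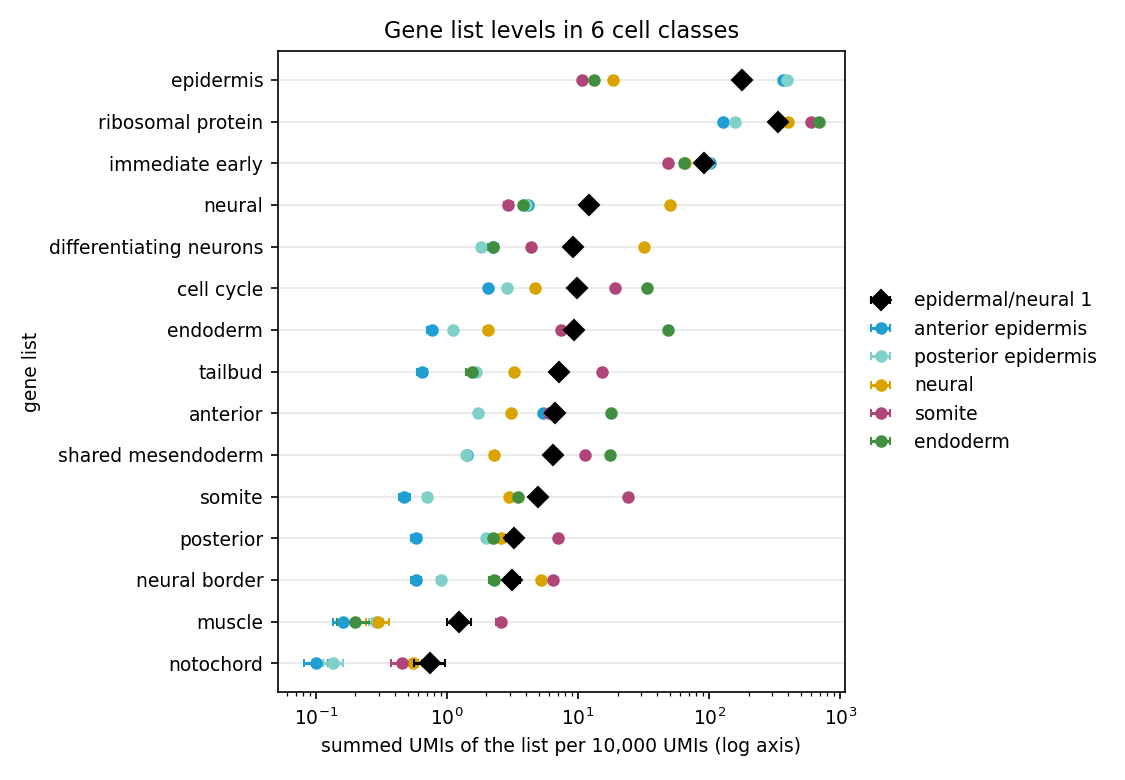
Summed UMIs per 10,000 UMIs (log axis) of 15 gene lists in epidermal/neural 1 (black diamonds) and in 5 compared classes (coloured points), with exact Poisson 95% intervals. For the epidermis list epidermal/neural 1, at 179.5, lies between both epidermal classes and the 3 inner tissues, and for the neural, endoderm and somite lists, at 12.1, 9.35 and 4.96, it lies between the tissue named and anterior epidermis.

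Genes not used to name tissues were intermediate too. The 47 ribosomal protein genes summed to 337 in epidermal/neural 1, against 127 in anterior epidermis, 398 in neural, 601 in somite and 689 in endoderm cells, and all 47 were at least 2-fold higher than in anterior epidermis, beside 19.7% of all genes compared. The list of 14 cell cycle genes came to 9.78 (9.08 to 10.5) in epidermal/neural 1 and to 2.05, 4.72, 19.2 and 33.5 in anterior epidermal, neural, somite and endoderm cells. *Pcna*, a replication clamp gene, was at 0.679 in epidermal/neural 1, 0.0857 in anterior epidermal and 2.63 in endoderm cells. The 5 immediate early genes, which respond to handling and stress, came to 90.8 in epidermal/neural 1, below the 101.5 of anterior epidermis and above the 65.2 of neural cells. None of these lists reached a level outside the range of the compared tissues.

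Genes of position along the body were mixed as well. The list of 9 anterior genes came to 6.62 (6.04 to 7.23) in epidermal/neural 1, 5.43 in anterior epidermal and 17.7 in endoderm cells. Within it *Otx*, a head homeobox gene, was at 1.64 in epidermal/neural 1, 0.322 in anterior epidermal and 7.42 in endoderm cells, while *Pax4/6* was at 0.747 in epidermal/neural 1 and 1.85 in anterior epidermal cells. The list of 6 posterior genes came to 3.22 (2.82 to 3.66) in epidermal/neural 1, 0.584 in anterior epidermal and 7.01 in somite cells. *Hox3*, a Hox gene, was at 0.503 in epidermal/neural 1 and 1.34 in somite cells. The 4 neural border genes came to 3.15 in epidermal/neural 1, 5.23 in neural, 6.42 in somite and 0.576 in anterior epidermal cells, and the list of differentiating neurons to 9.17 in epidermal/neural 1 and 32.1 in neural cells. The list shared by endoderm and axial mesoderm came to 6.47 in epidermal/neural 1, 17.6 in endoderm, 22.8 in notochord and 1.41 in anterior epidermal cells.

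Few genes set the class apart. Compared with all other cells of the atlas, 25 of 2992 genes were at least 2-fold higher (0.836%) and 40 at least 2-fold lower (1.34%), and the largest fold was 3.01. Compared with the highest of the other 16 classes, 0 of 2844 genes were 2-fold higher (0.0%), and only 6 (0.211%) had their highest level in epidermal/neural 1, by at most 1.26-fold. By the same count 7.45% of genes were highest in anterior epidermis, 2.78% in neural, 6.004% in endoderm, 3.23% in somite and 11.0% in epidermal/neural 2, the other class whose name joins both tissues. These are descriptions, since every gene was open to the clustering that formed the class.

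The 25 higher genes included *Ripply* (2.65-fold over all other cells) and *Nanos* (2.42-fold), an RNA-binding regulator of germ cells and the tailbud. Most of them have no name in the sources used here, as for BLAG01001123, the gene with the largest fold. Among the 118 transcription factors with at least 20 UMIs in these cells, or expected there from the level in all other cells, of the 152 that the study names, 4 were at least 2-fold higher and 3 at least 2-fold lower. Over all 5697 genes at the same minimum, 1.84% were at least 2-fold higher and 1.88% at least 2-fold lower. *Foxe* (BLAG13000518), a forkhead gene of the endostyle and club-shaped gland, was 2.89-fold higher, *Fezf* (BLAG05001154), a zinc finger gene of the vertebrate forebrain, 2.64-fold, *Hopx* (BLAG03001313) 2.58-fold and *Insm* (BLAG04000958), a zinc finger gene of differentiating neurons, 2.05-fold. The lower factors were *Foxb1* (BLAG04000675) at 0.404 of the level in all other cells, a *Hes1*-family gene (BLAG11000525) at 0.487 and *Islet* (BLAG02001562) at 0.499.

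These higher factors and *Ripply* came from few cells. The 50 UMIs of *Foxe* lay in 8 cells, and 42 of them in cells whose largest layer beside epidermis was endoderm. All 47 UMIs of *Insm*, in 7 cells, and 39 of the 40 of *Hopx* lay in cells whose largest other layer was neural. The 24 UMIs of *Fezf*, in 10 cells, were spread more widely, with 17 in cells whose largest other layer was neural, 6 in mesoderm and 1 in endoderm cells by the same grouping, and its highest cell was 1 of the mesoderm group. Of the 136 UMIs of *Ripply*, 121 lay in cells with mesoderm as the largest other layer. None of these genes was found in more than 18 of the 108 cells.

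To place the whole profile between the tissues, it was fitted as a weighted sum of the profiles of 12 annotated tissue classes, by maximum likelihood over genes. The fit gave epidermis 45.6%, all of it from anterior epidermis, neural tissue 24.2%, mesoderm 16.7%, endoderm 12.9% and tailbud 0.631%. The order of mesoderm and endoderm was not stable, since mesoderm and endoderm were at 14.1% each without plate 21, and at 14.9% and 15.9% with reference cells of at least 4000 UMIs. The neural part came mostly from the neural class (12.8%) and neural tailbud (8.58%), and the mesodermal part mostly from somite (12.5%), with 2.40% notochord and 1.81% muscular somites. Of 3012 genes with at least 50 UMIs observed or expected, 2897 (96.2%) lay within 1.5-fold of this sum. The same share was 76.0% in epidermal/neural 2, and a single tissue profile set against epidermal/neural 1 reached 30.4% to 54.9%. Other classes without a reference profile also took part of their weight from epidermis. The epidermal weight was 44.0% in neural-like 1, 42.4% in neural-like 2 and 24.1% in putative neuroendocrine cells. Within 1.5-fold lay 64.9% of 131, 61.9% of 491 and 41.6% of 238 genes in the same order.

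**Figure D3:**
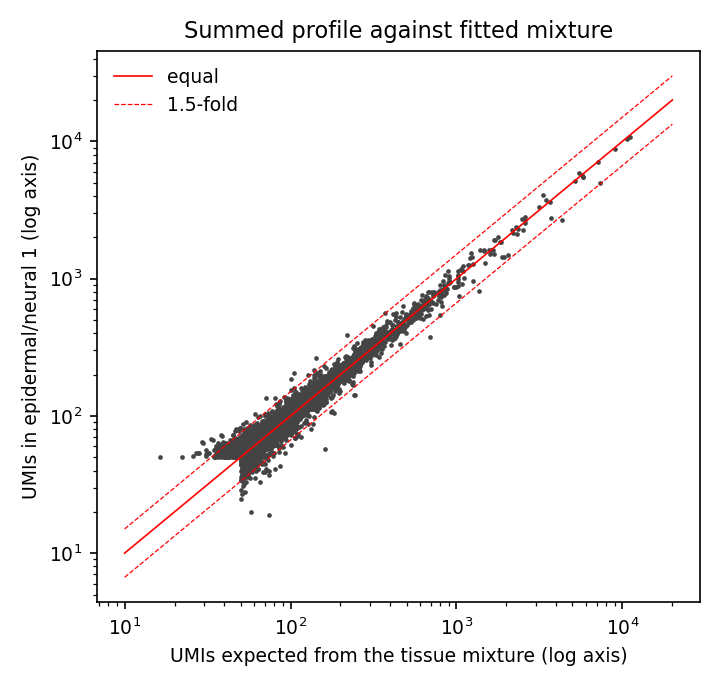
UMIs of each gene in epidermal/neural 1 (vertical) against the UMIs expected from the fitted sum of 12 tissue profiles (horizontal), both on log axes. The solid line marks equality and the dashed lines 1.5-fold; 2897 of the 3012 genes lie between the dashed lines.

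Only 5 genes were over 2-fold above the fitted sum (0.166%) and 6 at or below 0.5 of it (0.199%). Above it were *Foxe*, with 50 UMIs against 16.3 expected, and *Delta* (BLAG04000614), a Notch ligand, with 68 against 33.3, beside 3 unnamed genes. Of the 68 *Delta* UMIs, 27 came from a single cell of plate 21. Below it were *Tcf15-like*, with 57 UMIs against 162 expected, *Foxb1*, with 20 against 57.8, and *Ctfp1* (BLAG03000807), a calcitonin family peptide gene of the anterior neural plate, with 19 against 74.1, beside 3 unnamed genes. The lists as a whole lay near the sum. Observed over expected UMIs came to 1.02 for epidermis, 0.919 for neural, 1.09 for endoderm, 1.05 for somite, 0.997 for cell cycle and 0.979 for ribosomal protein genes, and to 1.38 for tailbud genes.

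Genes that separate tissues strongly were then taken pair by pair. Among genes at least 4-fold higher in neural than in anterior epidermal cells, 397 of 433 had a level in epidermal/neural 1 between both, and among those at least 4-fold higher in anterior epidermis 741 of 746 did. The counts were 662 of 683 and 844 of 851 with endoderm in place of neural, and 617 of 633 and 870 of 875 with somite. The median level in epidermal/neural 1 was 53.6%, 44.3% and 51.6% of the higher level for the genes of neural, endoderm and somite, and 49.9%, 50.6% and 50.7% for the epidermal genes of the same 3 comparisons. These shares are higher than those of the marker lists. The genes were taken from 2 classes at a time, so they may also be high in other inner tissues, and all the comparisons share the anterior epidermal cells. The median levels are thus not shares of 1 tissue in the class. No other class was set against these genes, so the counts have no baseline.

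The sum over a class does not say whether single cells join tissues, so the same fit was made for each cell and its weights added up by layer. A layer was counted as present at a weight of 10% or more. The tailbud, a posterior region, was counted as a layer of its own and reached this weight in 11 cells. Some cells thus counted as having 3 layers only through the tailbud. Epidermis and at least 1 other layer were present in 107 of the 108 cells (99.1%, Clopper-Pearson 95% interval 94.9 to 99.98). Since epidermis and neural tissue both form from the ectoderm, this is not a count of cells that join germ layers. A weight of 10% or more was reached by neural tissue in 66 cells, mesoderm in 32 and endoderm in 30. Exactly 2 layers were present in 81 cells, 3 in 24, 4 in 3 and 1 layer alone in 0. The epidermal weight ran from 8.90% to 86.8% with a median of 45.1% and quartiles of 33.4% and 59.4%. Unlike in the summed profile, posterior epidermis was used too, and 87 of the 108 cells had more anterior than posterior epidermal weight. The largest other layer had a median weight of 45.1%, the next other layer 3.05%, and in 59 cells the largest other layer held at least 90% of all that was not epidermis.

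**Figure D4:**
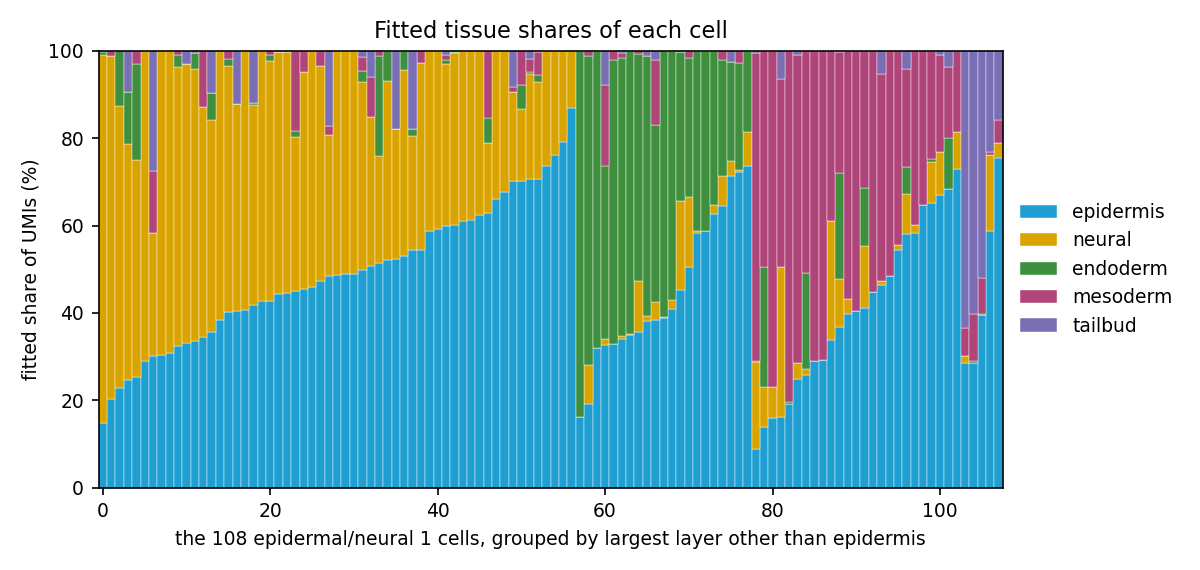
Fitted weights of epidermis, neural, endoderm, mesoderm and tailbud profiles in each of the 108 epidermal/neural 1 cells, 1 bar per cell, adding up to 100%. Cells are grouped by the largest layer other than epidermis (57 neural, 21 endoderm, 25 mesoderm, 5 tailbud) and sorted by epidermal weight, which runs from 8.90% to 86.8%; most bars are made of epidermis and 1 other colour.

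The cells with 3 or more layers depended on where a layer is counted. They were 27 at a weight of 10%, 46 at 5% and 7 at 20% (5% and 20% were chosen after seeing the data), and 20 cells had a second other weight within 3 points of 10%. The number with epidermis and another layer was 108 at 5% and 93 at 20%.

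Other classes gave the background, with all cells thinned to 2000 UMIs and each cell left out of its own reference. The compared classes have their own profile among the 12 references, whereas epidermal/neural 1 and 2 have none and can only be fitted by other tissues, so the contrast in these shares is in part set by the fit. Epidermis and another layer were present in 104 of 104 epidermal/neural 1 cells, in 11.6% of anterior epidermal, 4.35% of posterior epidermal, 0.980% of neural, 0.485% of endoderm and 0.220% of somite cells, and in 97.3% of epidermal/neural 2. Layers numbering 3 or more were present in 27.9% (19.5 to 37.5) of epidermal/neural 1 cells, against 0 of 1645 anterior epidermal cells (0.224% at most), 0.300% of posterior epidermal, 1.26% of neural, 8.98% of endoderm and 18.9% of somite cells. The fit thus also divided cells of the inner tissues, and 2 or more layers were present in 57.0% of somite and 42.7% of endoderm cells, though seldom with epidermis. In epidermal/neural 2, 3 or more layers were present in 0 of 73 cells (4.93% at most).

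The shares were also taken by plate and by depth. On the 5 plates that hold most of the cells, epidermis and another layer were present in 65 of 65 epidermal/neural 1 cells and 12.4% of 394 anterior epidermal cells, and on the other plates in 39 of 39 and 11.4%. In posterior epidermis the share was 7.25% on those 5 plates and 3.34% on the others. Among cells with at least 4000 UMIs the values were 81 of 81 in epidermal/neural 1 and 10.4% of 636 anterior epidermal, 2.08% of 144 posterior epidermal and 0 of 238 neural cells, which allows up to 1.54%. Among cells with 2000 to under 4000 UMIs they were 23 of 23 in epidermal/neural 1 and 12.4% in anterior epidermis. The share of cells assigned to a class follows from clustering on the same genes, so these values describe the class and are no test of it.

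**Figure D5:**
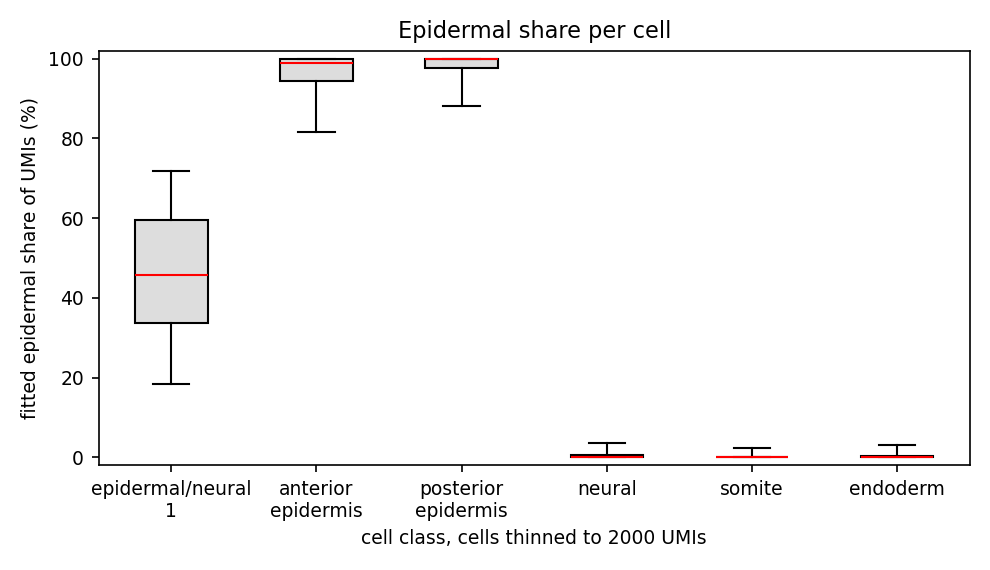
Fitted epidermal weight per cell (%) in epidermal/neural 1 and the 5 compared classes, each cell thinned to 2000 UMIs. Boxes span the quartiles with the median in red and whiskers the 5th to 95th percentiles; epidermal/neural 1 has a median of 45.9%, anterior epidermis 98.8%, and the neural, somite and endoderm cells lie close to 0.

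Marker genes were also counted directly, which separated the classes less than the fit. The tailbud list was left out of this count, unlike the tailbud layer in the fit. With at least 2 genes of a list required and cells thinned to 2000 UMIs, 70 of 104 epidermal/neural 1 cells (67.3%, 57.4 to 76.2) held the epidermis list and at least 1 of the neural, endoderm and mesoderm lists (mesoderm being the somite, muscle and notochord lists together), against 61.8% (58.1 to 65.3) of neural, 43.9% of endoderm, 27.8% of somite, 15.9% of anterior and 12.4% of posterior epidermal cells. The intervals of epidermal/neural 1 and neural cells overlapped. At least 3 lists were held by 7 epidermal/neural 1 cells (6.73%, 2.75 to 13.4), against 7.70% of neural, 8.98% of endoderm, 4.85% of somite and 0.426% of anterior epidermal cells, so on this count the class lay within the range of the inner tissues. Keratin UMIs were found in each compared class, and 64.4% of neural cells, at a median of 3 epidermal list UMIs, held 2 epidermal genes. The amount differed: the epidermis list came to 33 UMIs per thinned cell (median, 3 to 96) in epidermal/neural 1, 72 in anterior epidermis, 87 in posterior epidermis, 3 in neural, 2 in endoderm and 1 in somite cells.

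With at least 15 UMIs of the epidermis list required, a limit chosen after seeing these amounts, 56.7% (46.7 to 66.4) of epidermal/neural 1 cells joined epidermis and another list, against 15.9% of anterior and 12.4% of posterior epidermal cells. Only 2 of 714 neural, 2 of 412 endoderm and 0 of 454 somite cells reached 15 such UMIs at all, so for these classes the limit itself fixes a share near 0 and no comparison is made with them. The other list was neural in 32 of the 104 cells, endoderm in 20 and mesoderm in 13. In epidermal/neural 2 the share was 53.4%, with the neural list in all 39 such cells and the endoderm and mesoderm lists in 0 of 73.

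Single genes were read in the cells as deposited. *Krt75* had at least 1 UMI in 107 of the 108 cells and at least 5 in 105. *Elav* had at least 3 UMIs in 33 cells, of which 32 also had at least 5 *Krt75* UMIs. *Plac8-like* did so in 20 cells, *Hypp9287* in 17, *Wnt1* in 16 and *Ripply* in 9, and all of these had at least 5 *Krt75* UMIs. Genes of different inner tissues were also paired, and with so few cells per gene a low overlap says little. *Elav* and *Plac8-like* both had at least 3 UMIs in 1 cell, as had *Elav* and *Ripply*, and *Plac8-like* and *Ripply*. *Wnt1* met *Plac8-like* in 2 cells and *Elav* in 2. The 10 cells with most UMIs of a gene held 54.3% of all *Elav*, 70.6% of *Plac8-like* and 91.2% of *Ripply* UMIs in the class.

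Levels of the lists separated by the largest other layer, also when that layer was taken from a fit without any list gene (the largest other layer was the same in 106 of 108 cells). By that fit 57 cells had neural, 26 mesoderm, 21 endoderm and 4 tailbud as the largest other layer. The neural list was at 20.1 in the first group, against 3.73 to 5.03 in the other groups. The endoderm list was at 31.9 in the endoderm group and 2.43 to 7.01 elsewhere, and the mesoderm lists together at 20.8 in the mesoderm group and 1.45 to 3.02 elsewhere. The tailbud list was at 51.7 in the 4 tailbud cells and 1.70 to 6.52 elsewhere. The epidermis list differed less but was not even. It was at 200 (195 to 205) in the neural and 191 (175 to 207) in the tailbud group. In the endoderm group it was at 168 (161 to 175) and in the mesoderm group at 148 (143 to 154).

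Other gene groups moved with the largest other layer. Cell cycle genes were at 4.69 in the neural group, 12.5 in the mesoderm, 17.1 in the endoderm and 19.5 in the tailbud group. Ribosomal protein genes were at 259 in the neural, 418 in the endoderm, 435 in the mesoderm and 268 in the tailbud group. Neural cells of the atlas likewise held less of both lists than somite and endoderm cells.

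A few cells show the range. The cell in well 131 of plate 24, with 13503 UMIs and weights of 83.6% endoderm and 16.3% epidermis, held 35 UMIs of *Krt75*, 25 of *Plac8-like*, 23 of *Hypp9287* and 0 of *Elav*. The cell in well 320 of plate 21, with 80.3% mesoderm, held 26 UMIs of *Foxc* and 22 of *Krt75*. The cell in well 26 of plate 21, with 63.5% tailbud and 28.5% epidermis, held 52 UMIs of *Krt75*, 30 of *Brachyury2*, a T-box gene of axial mesoderm and tailbud, 16 of *Wnt1* and 9 of *Vasa*, a germline helicase gene. The cell in well 204 of plate 25, with 84.4% neural weight and 3571 UMIs, held 3 UMIs of *Elav* and 4 of *Krt75*. At the other end, the cell in well 29 of plate 27 had 86.8% epidermal weight but 0 UMIs of either keratin among 4540. Some cells had little or nothing of the list of their largest other layer. Well 174 of plate 38 had 45.8% neural weight and 0 neural list UMIs among 5721. Well 61 of plate 29 had 40.3% endoderm weight and 0 endoderm list UMIs among 1550. Well 337 of plate 22 had 59.5% mesoderm weight and 1 mesoderm list UMI among 10513.

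The spread between cells was set against other classes. In thinned cells the variance over the mean was 10.6 for the epidermis list, 4.84 for neural, 4.17 for endoderm and 6.18 for mesoderm, where counting alone would give about 1. In anterior epidermis these values were 10.004, 2.005, 1.49 and 1.34. Other classes also spread well beyond counting in the lists they carry, with 6.85 in neural and 4.82 in epidermal/neural 2 cells for the neural list, 3.67 in endoderm cells for the endoderm list, and 4.18 in somite and 4.598 in endoderm cells for the mesoderm lists. The neural list had 0 UMIs in 35 of the 104 epidermal/neural 1 cells, the endoderm list in 57 and the mesoderm list in 63. The epidermis list had 0 UMIs in 0 cells.

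The layers joined were also read plate by plate. Epidermis and another layer were present in 15 of 16 cells of plate 21, 16 of 16 of plate 29, 15 of 15 of plate 24, 11 of 11 of plate 23, 8 of 8 of plate 22 and 42 of 42 on the other plates. Cells with 3 or more layers were 7 of 16 on plate 29, where the median was 3568.5 UMIs, and 1 of 16 on plate 21, where it was 8048.5. They were 2 of 15 on plate 24 (median 8673), 0 of 11 on plate 23 (6715) and 2 of 8 on plate 22 (7901.5). On the other plates together they were 15 of 42, at a median of 5394 UMIs. Neural tissue was the largest other layer in 31 of the 42 cells of the other plates, in 6 of 16 on plate 21, 7 of 16 on plate 29, 5 of 15 on plate 24, 2 of 11 on plate 23 and 6 of 8 on plate 22. The mix of layers thus differed between plates, and whether it did so beyond the choice of cells was not tested.

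The UMIs were split by the weights to compare them with whole cells of the same plate. The part fitted to epidermis held 2587 UMIs per cell at the median, which was 1.05 times the median of anterior epidermal cells of the same plate (0.0879 to 4.07). The part fitted to the other layers held 3417 UMIs. Where neural was the largest other layer, the neural part came to 0.929 times the plate median of neural cells, where endoderm was the largest to 1.18 times that of endoderm cells, and where mesoderm was the largest to 1.13 times that of somite cells. These are medians, and the range within each group was wide. Each part sums all reference classes of its layer, whereas the plate median is that of 1 class, so the ratios depend on this choice. Posterior epidermal cells, for example, were shallower than anterior ones (medians of 1246 and 2061 UMIs). The sort excluded multiplets by the width and height of forward scatter, and no doublet caller was run here. From these tables a cell that expresses genes of several layers and a well that held RNA of more than 1 cell cannot be told apart.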

How the data were processed

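The authors dissociated and pooled wild type embryos, sorted live cells into plates, mapped the MARS-seq reads with STAR 2.7.3 to the *B. lanceolatum* genome with annotation version 3, and deposited UMI counts of 27073 genes in 14586 cells. They grouped cells into 176 metacells with Metacell 0.37, named each from known markers, and deposited the annotation of each cell. Their table of metacell fold changes was not used here. The 4 ATAC-seq samples were not analysed here. Columns that could not be mapped to samples were 0.

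Members were taken by the deposited annotation. Counts were summed per class and scaled to 10,000 UMIs, with exact Poisson intervals. For shares of cells the 95% interval is Clopper-Pearson. Neither interval holds more than counting error. A gene was compared if its higher level gave at least 50 UMIs, and named by list, by largest fold (10 genes), or among the study's factors (10 highest and 5 lowest). Members, lists and tests were chosen with earlier results of these data known, and no comparison has a p-value. Mixture weights of single cells came from 300 expectation-maximization iterations over genes reaching 50 UMIs atlas-wide, and those of the summed profile from a longer run. The fit was tested on cells simulated from the reference profiles, as anterior epidermis alone or with 1 other tissue. That test was judged on the epidermal share and did not cover cells of 3 tissues or cells unlike the references. Thinning used seed 0. Gene names come from identifier and name pairs in the study. Python 3.11.15, numpy 2.4.6, pandas 2.3.3, scipy 1.17.1 and matplotlib 3.10.9 were used. Alternatives were other minimum counts, depths, references and genes per list, and leaving out plates.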

Additional observations from a re-analysis of the deposited data

How the results depend on the processing

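No paired analysis was possible because the cell names carry no sample or replicate number and no result comes from a test. Counts of genes or cells and spreads were held to 1.5 times the reported value, and levels, shares and weights to their 95% counting interval, which is narrow for weights. Among the values that answer a comparison, 28 stayed and 49 moved, of which 29 moved by less than 1.5 times. Among the others 32 stayed and 22 moved. The order of mesoderm and endoderm in the fitted sum turned with reference cells of 4000 UMIs or more and was level without plate 21. Some settings leave fewer genes, UMIs or cells, and no cause of a move was tested. At 2000 UMIs an epidermal/neural 1 cell held a median of 1 UMI of the neural list and 0 of the endoderm and mesoderm lists.

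Averaging each member's own level gave 8.46 UMIs per 10,000 for the endoderm list and 4.13 for the somite list, and leaving out the members above the upper quartile of UMIs gave 7.83 for the endoderm list. The somite list was at 3.93 without plate 21 and 4.41 without plate 29. Over all other cells, a minimum of 20 UMIs gave 105 higher and 107 lower genes, a minimum of 200 UMIs 2 and 15, and reference cells of 4000 UMIs or more 7 and 14. Against anterior epidermis, a minimum of 20 UMIs gave 1407 higher and 685 lower genes, and a minimum of 200 UMIs 167 and 125.

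The mixture gave epidermis, neural, mesoderm and endoderm weights of 46.4%, 22.1%, 18.01% and 13.5% with 5 compared classes as reference. Without the 100 genes with most UMIs they were 40.4%, 24.6%, 17.5% and 14.8%, with tailbud at 2.65%. Without plate 21 they were 46.1%, 25.7%, 14.1% and 14.1%, with tailbud at 0.0%. Without plate 29 they were 45.3%, 24.7%, 16.6% and 13.2%, with tailbud at 0.328%. With reference cells of 4000 UMIs or more they were 45.2%, 19.1%, 14.9% and 15.9%, with tailbud at 4.93%.

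The share of cells with the epidermis list and another was 93.3% with 1 gene per list, 41.3% with 3, 23.1% thinned to 500 UMIs, 84.3% not thinned, and 56.7% both without the keratins and *Plac8-like* and with at least 15 epidermis list UMIs. The share with 3 or more lists was 49.0%, 0.962%, 0.926% and 40.7% under the first 4 of these. Thinned to 500 UMIs, the variance over the mean was 3.58 for epidermis, 2.78 for neural, 1.999 for endoderm and 1.82 for mesoderm genes.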
